A study of Medicago truncatula with 14 samples.

Results

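Chromosome 6 of the legume Medicago truncatula carried 2468 of 17194 NIN regions (14.4%) and 677 of 16700 LSH1 regions (4.05%) on the 8 chromosomes, 3145 of 33894 regions in all. A region was a stretch in which peaks of 1 protein overlapped by at least 1 bp and came from 2 or more of its peak lists. The chromosome was selected on measured values: of the 8 chromosomes it was the one on which the shares of NIN peaks and LSH1 peaks were furthest apart. Counts, shares and densities of peaks along it are therefore given as a description, with no test. Tests were kept for measures that the choice did not use, namely where peaks lay relative to genes, how wide they were and how early they stood in their lists.

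The peaks came from chromatin immunoprecipitation followed by sequencing, in which DNA crosslinked to a tagged protein is pulled down and read. The material was transiently transformed hairy roots (roots that carry the construct on a plant whose shoot does not) of ecotype jemalong, cultivar Jester. Roots expressed GFP-NIN or GFP-LSH1 from the ubiquitin promoter of Lotus japonicus, an overexpression, and had grown for 3 weeks on modified Fahraeus medium in the absence of rhizobia (non-symbiotic conditions). There were 3 NIN and 4 LSH1 immunoprecipitations, each with its own control, in all 14 libraries and 7 peak lists. The labels give every control the construct of its immunoprecipitation, whereas the protocol names roots with nuclear GFP as control, so the control material is uncertain. Nothing states that replicates were separate cultures, and p-values over lists reflect how far these lists differ among themselves, which may be a technical spread.

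NIN (NODULE INCEPTION) is a transcription factor of the RWP-RK family that starts both infection by rhizobia and the cell divisions of the nodule. It is related to the NIN-LIKE PROTEINs of nitrate signalling and binds DNA through its RWP-RK domain. LSH1 is a nuclear protein of the ALOG family (named for Arabidopsis LSH1 and rice G1) and acts in the development of nodule organ identity. Chromosome 6 of this species is known for a low gene density and much heterochromatin, the compact and repeat-rich part of a genome.

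The lists differed in length. They held 14021, 28825 and 84178 peaks in NIN replicates 1 to 3, against 25127, 21902, 18750 and 20787 peaks in LSH1 replicates 1 to 4. NIN replicate 3 stood apart, and it entered most NIN regions: 1603 of the 2468 on chromosome 6 (65.0%) came from replicates 2 and 3, 401 (16.2%) from replicates 1 and 3, 146 (5.92%) from replicates 1 and 2, and 318 (12.9%) from all 3 lists. Without NIN replicate 3 the chromosome had 390 NIN regions, 13.7% of those on the 8 chromosomes. Without replicate 2 it had 712 (13.3%), and without replicate 1 it had 1919 (15.1%). The number of NIN regions thus moved with the lists used, and the share on chromosome 6 stayed between 13.3 and 15.1%. Read numbers per library were not used here, and depth is unknown; a list's length is no measure of binding.

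Chromosome 6 was the densest chromosome for NIN in each of 3 lists and the sparsest for LSH1 in each of 4. The NIN lists had 37.0, 93.7 and 234 peaks per Mb there, against 32.4, 64.6 and 192 peaks per Mb on the other 7 chromosomes, which makes a ratio of 1.27 ± 0.161 (SD, n = 3). The LSH1 lists had 27.7, 25.6, 20.8 and 17.7 peaks per Mb there, against 62.5, 54.3, 46.6 and 52.3 elsewhere, a ratio of 0.425 ± 0.0592 (SD, n = 4). The lists of a protein did not differ in direction, and the gap was larger on the LSH1 side. As merged regions, chromosome 6 had 57.6 NIN regions per Mb, against 27.8 (chromosome 3) to 41.8 (chromosome 4) on the others. It had 15.8 LSH1 regions per Mb, against 37.2 (chromosome 7) to 49.3 (chromosome 1). There were 3.65 NIN regions for each LSH1 region on chromosome 6, and 0.699 to 1.10 on the other chromosomes. This number turned on the NIN lists used: it was 2.83 without NIN replicate 1, 1.05 without replicate 2 and 0.576 without replicate 3, the last with fewer NIN than LSH1 regions. The other chromosomes then had 0.502 to 0.833, 0.221 to 0.340 and 0.121 to 0.187, each range below chromosome 6. The chromosome is 42.9 Mb long, 10.1% of the length of the 8, and has 57.3 coding genes per Mb, where the others have 70.0 to 80.1.

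**Figure D1:**
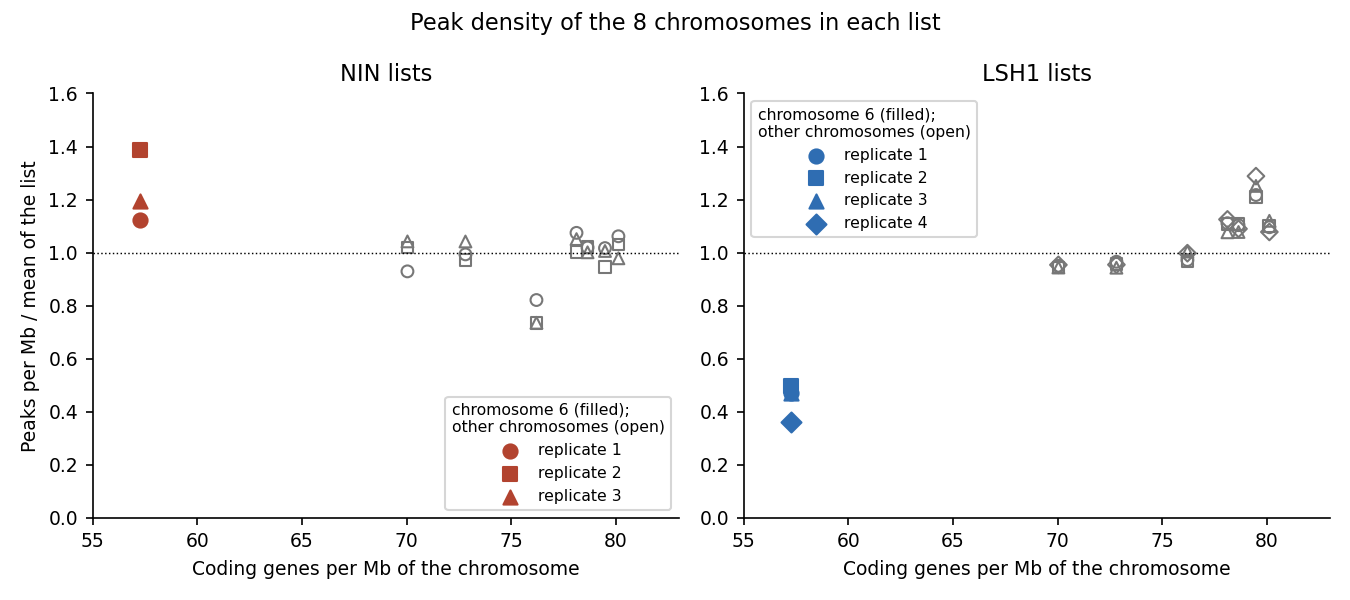
Peaks per Mb of each chromosome divided by the mean density of the same list (vertical axis, no unit), against coding genes per Mb of the chromosome (horizontal axis), for the 3 NIN lists (left) and the 4 LSH1 lists (right); filled symbols are chromosome 6, open symbols the other 7 chromosomes. Chromosome 6 has the fewest genes per Mb (57.3) and lies above every other chromosome in the NIN lists and below every other chromosome in the LSH1 lists.

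Regions that came from more lists were wider and stood earlier in the lists, which the merging in part builds in. A region runs from the first to the last base of its joined peaks, so joining peaks of more lists widens it by construction. Place is 100 times a peak's running number over the length of its list, so that low values come first. A region took its earliest peak in each list, averaged over lists, so joining several peaks of a list also moves it earlier. The lists hold no height, fold or q-value, and this number was taken as a rank on a scale that is not stated. Just outside the rule lay stretches of chromosome 6 with peaks of a single list: 10063 for NIN, with a median width of 359 bp and a median place of 53.1%, and 1955 for LSH1, with 254 bp and 66.5%. Just inside it, regions of exactly 2 lists numbered 2150 for NIN, with a median place of 42.8%, and 322 for LSH1, with 428 bp and 52.2%. Regions of all lists were 1279 bp wide at the median for NIN (318 regions, median place 35.8%) and 902.5 bp for LSH1 (186 regions, median place 20.1%). The share of regions found in all lists was 12.9% on chromosome 6 and 12% elsewhere for NIN, and 27.5% and 27.7% for LSH1. In this respect the regions of chromosome 6 resembled those of the other chromosomes.

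Along the chromosome the regions of the proteins were arranged differently. NIN regions crowded into the middle and the middle right of the chromosome, and LSH1 regions into both ends. In 1 Mb bins, numbered from the start of the sequence with a last bin of 855802 bp, NIN outnumbered LSH1 in 40 of 43 bins (93.0%). The same held in 190 of 385 bins of the other chromosomes (49.4%) and in 53.7% of all 428 bins. The exceptions were bin 2 with 31 NIN and 41 LSH1 regions, bin 40 with 38 and 46, and bin 42, where both had 41. These counts rest on NIN replicates 2 and 3. NIN outnumbered LSH1 in 13 bins of chromosome 6 without replicate 3 (30.2%, against 9.61% elsewhere), in 23 without replicate 2 (53.5%, against 22.6%) and in 38 without replicate 1. Because the chromosome was chosen for its peak shares, nothing is read from this excess.

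A bin was called NIN-dense when it had at least 71 NIN regions, which put it in the top 10% of all bins. On chromosome 6 these were 10 of 43 bins (23.3%), against 34 of 385 on the other chromosomes (8.83%, 3 to 8 bins per chromosome) and 10.3% of all bins. The densest were bin 31 with 98 NIN regions, bin 18 with 96 and bin 19 with 92. The longest run was bins 28 to 31, with 79, 83, 85 and 98 NIN regions. The remaining ones were bins 10, 14, 22 and 33, with 81, 71, 77 and 77. LSH1 had 13, 16, 4 and 9 regions in bins 28 to 31, and 4 to 17 in the 10 dense bins. The dense bins had 29 to 75 coding genes with a median of 39, while the other bins of the chromosome had a median of 65. Of the 318 NIN regions found in all 3 lists, 118 lay in the dense bins (37.1%), near the 34.0% of all NIN regions of the chromosome.

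The NIN lists did not place their peaks in the same bins. In the dense bins NIN replicate 1 had a median of 37 peaks, against 35 in the other bins of the chromosome. Replicate 2 had 115 to 165 in the dense bins, against 54 to 129 with a median of 81 in the others. Replicate 3 had a median of 307 in the dense bins (256 to 324), against 200 in the others (150 to 373). In both lists the ranges overlapped, and the highest number of replicate 3 lay in bin 23, which was not dense. The dense bins were defined by NIN regions, and 65.0% of those on chromosome 6 came from replicates 2 and 3. Higher numbers of these lists in the dense bins were thus in part built in, while the medians of replicate 1 differed by 2 peaks. When the top 10% of bins was taken within 1 list, 6 bins of chromosome 6 qualified in replicate 1, of which 2 were among the 10 dense bins. In replicate 2 it was 9 bins (8 among the 10), and in replicate 3 also 9 (6 among the 10). No bin of the chromosome reached the top 10% in any of the LSH1 lists. With regions rebuilt without NIN replicate 3, 6 bins were NIN-dense and 2 of them were among the 10. Without replicate 1 there were 11 (9 shared) and without replicate 2 there were 9 (7 shared). Without NIN replicate 3 the dense bins were thus mostly other bins.

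**Figure D2:**
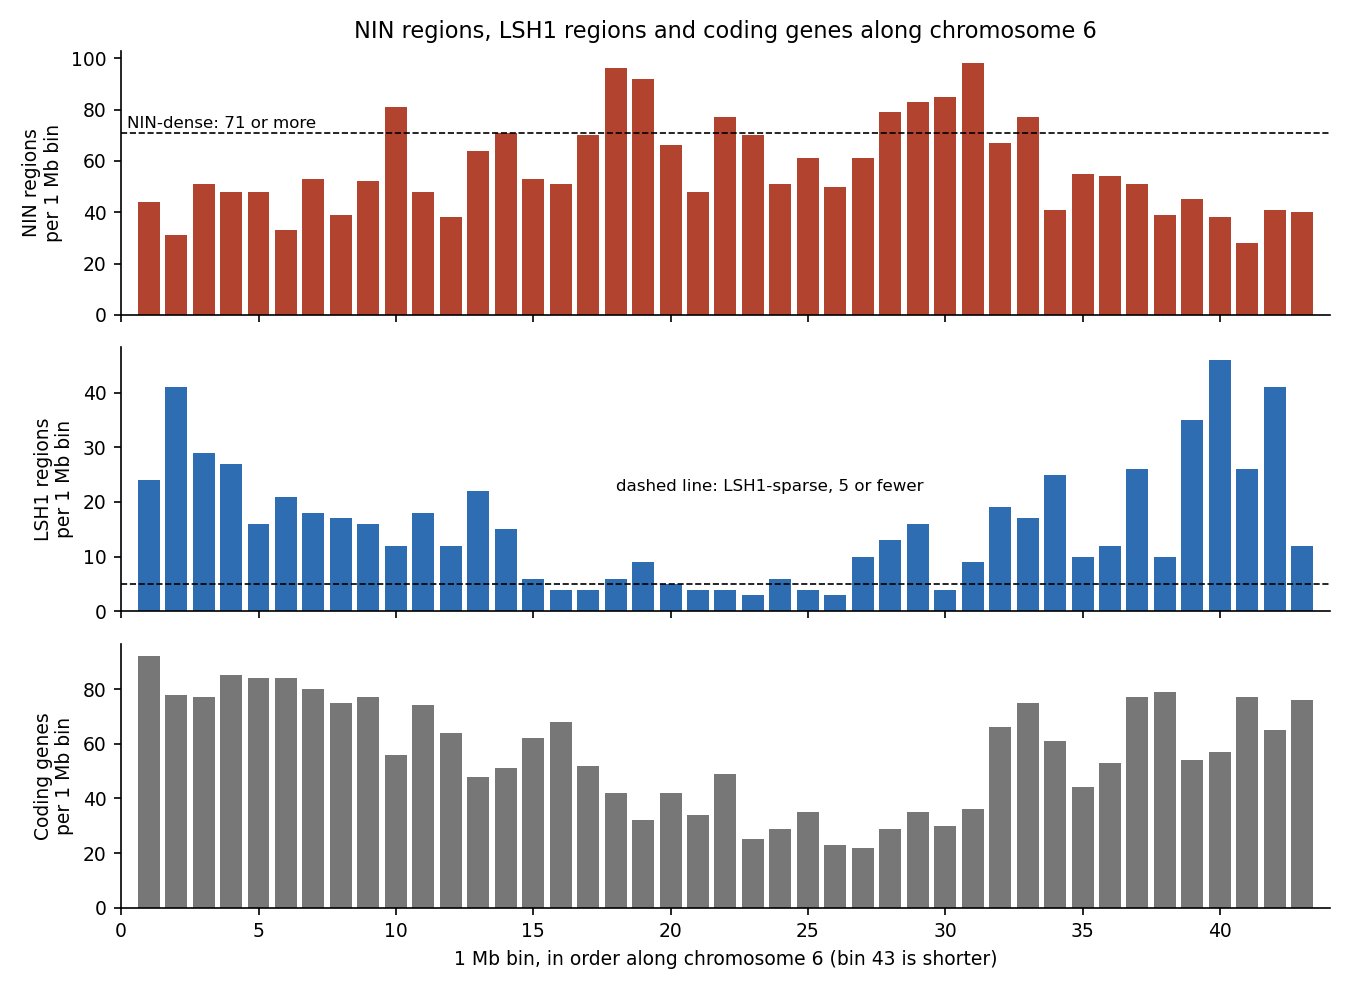
NIN regions (top), LSH1 regions (middle) and coding genes (bottom) per 1 Mb bin in order along chromosome 6; dashed lines mark the limits for NIN-dense bins (71 or more) and LSH1-sparse bins (5 or fewer). NIN is highest in bin 31 with 98 regions and LSH1 in bin 40 with 46, while bins 16 to 26 hold 3 to 9 LSH1 regions each.

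No bin of chromosome 6 was without an LSH1 region. The lowest number was 3, in bins 23 and 26, and 1 bin on the other chromosomes (on chromosome 7) had 0. A class of LSH1-sparse bins was therefore added after the values were seen: bins with at most 5 LSH1 regions, about the lowest 10% of all bins (ties included). It held 9 of 43 bins of chromosome 6 (20.9%), against 41 of 385 elsewhere (10.6%) and 11.7% of all bins. By the peaks of single lists, 6, 7, 4 and 11 bins of chromosome 6 were among the lowest 10% in LSH1 replicates 1 to 4 (9.30% in replicate 3 to 25.6% in replicate 4), so replicate 3 had no excess. The LSH1-sparse bins were bins 16, 17, 20 to 23, 25, 26 and 30, each with 3 to 5 LSH1 regions. Most of them formed a stretch in the middle of the chromosome that also has few genes, with 23 to 68 coding genes per bin and a median of 35. Bins 22 and 30 were NIN-dense and LSH1-sparse at once, with 77 and 85 NIN regions and 4 LSH1 regions each. Without 1 LSH1 list at a time, 7 to 10 bins were sparse, and 7 to 9 of them were among the 9.

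LSH1 was most frequent toward the ends. Bin 40 had 46 LSH1 regions, bins 2 and 42 had 41 each and bin 39 had 35. Of the LSH1 regions found in all 4 lists, 15 lay in bin 39, 14 in bin 42 and 11 each in bins 2 and 40. In LSH1 replicates 1 to 4, bin 40 had 65, 55, 44 and 44 peaks, and bin 2 had 77, 55, 50 and 38. Bin 23, in the sparse stretch, had 7, 6, 4 and 2 peaks in the same lists. These bins were picked by regions built from the same lists, so the order of these values was largely fixed by the choice. Over all 42 full bins, Spearman's rho between pairs of LSH1 lists was 0.927 to 0.960.

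**Figure D3:**
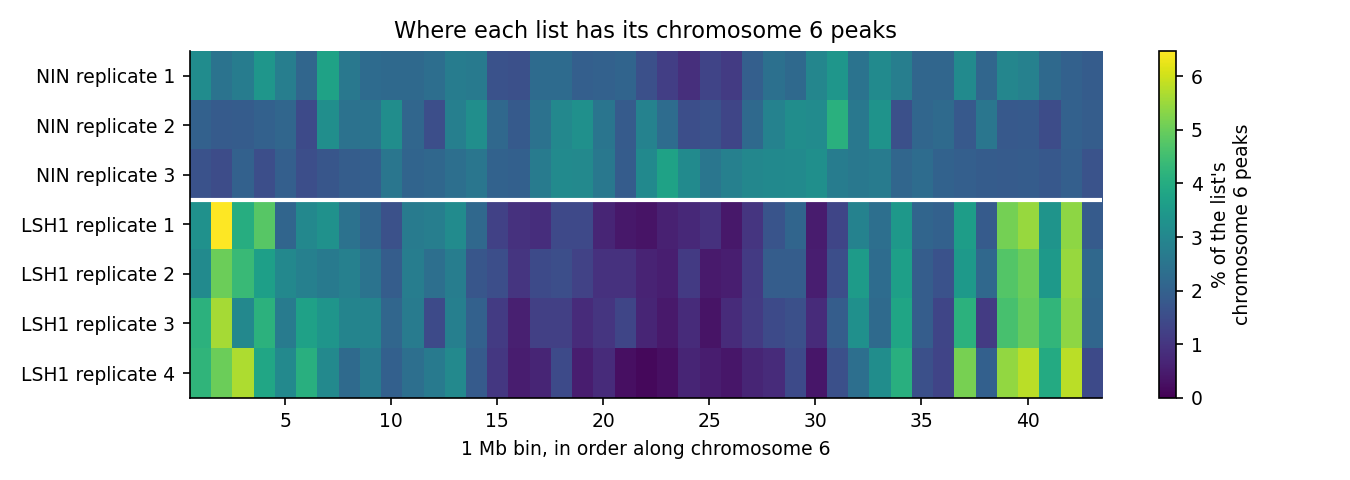
Share of each list's chromosome 6 peaks in each 1 Mb bin (colour, in percent), with the 3 NIN lists in the upper rows and the 4 LSH1 lists in the lower rows. The LSH1 lists share a pattern with high ends and a low middle, NIN replicate 2 has its highest share in bin 31, NIN replicate 3 has most of its higher shares between bins 18 and 31, and NIN replicate 1 has its lowest share in bin 24.

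The longest stretches of chromosome 6 without a region of 1 protein were longer for LSH1 than for NIN. The longest without LSH1 was chr6:23667550-24571236 (904 kb), which held 59 NIN regions and 20 coding genes. The LSH1 lists had 4, 2, 0 and 0 peaks there, none of them shared by 2 lists. Next came chr6:15679347-16563131 (884 kb), with 72 NIN regions and 46 coding genes, and chr6:14639050-15496874 (858 kb), with 24 NIN regions and 61 coding genes. The longest LSH1 gap on another chromosome ran from 610 kb (chromosome 5) to 1510 kb (chromosome 3), so gaps of this length were found elsewhere too. The longest NIN gap on another chromosome ran from 306 kb (chromosome 8) to 760 kb (chromosome 3). On chromosome 6 the longest stretch without NIN was chr6:20458389-20714680 (256 kb). It holds 505 annotated ribosomal RNA genes, all of this class on the chromosome, and 5 coding genes. Apart from 7 peaks of NIN replicate 3, none of the 7 lists had a peak in it. The second, chr6:38959636-39180323 (221 kb), held 16 LSH1 regions. Between neighbouring NIN regions the median gap was 8.37 kb on chromosome 6 and 10.8 kb elsewhere. Between neighbouring LSH1 regions it was 22.8 kb on chromosome 6 and 8.03 kb elsewhere.

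Gene content ran against the number of NIN regions along the chromosome and with the number of LSH1 regions. Over the 42 full bins of chromosome 6, Spearman's rho with the number of coding genes was -0.590 for NIN regions and 0.646 for LSH1 regions. Over 378 full bins of the other chromosomes it was -0.562 for NIN and 0.834 for LSH1. By list, rho on chromosome 6 was 0.485 in NIN replicate 1, -0.193 in replicate 2 and -0.807 in replicate 3, and 0.669 to 0.732 in the LSH1 lists. NIN replicate 1 thus ran with gene number along the chromosome and replicate 3 against it. Between pairs of NIN lists rho over bins was -0.357 to 0.449 on chromosome 6, against 0.299 to 0.706 on the other chromosomes. Between pairs of LSH1 lists it was 0.927 to 0.960, against 0.971 to 0.979. Bins of 1 list share a library and its depth, so these values are descriptions and carry no p.

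The low number of LSH1 regions was set against bins of the other chromosomes in the same class of gene content. The deficit was found in bins rich in genes and not in bins poor in genes. In bins with 80 or more coding genes, chromosome 6 had 21.2 ± 4.44 LSH1 regions (SD over 5 bins, 16 to 27), against 61.2 ± 22.3 on the other chromosomes (SD over 205 bins, 13 to 116). The 5 bins were 1, 4, 5, 6 and 7, at the start of the chromosome. Of the 205 bins elsewhere, 14 had 27 LSH1 regions or fewer. In bins with 60 to 79 coding genes the numbers were 20.5 ± 11.1 (15 bins) and 28.6 ± 16.1 (82 bins). With 40 to 59 genes they were 15.5 ± 13.7 (11 bins) and 13.6 ± 9.05 (47 bins). Under 40 genes they were 7.36 ± 4.39 (11 bins) and 4.57 ± 3.44 (44 bins), so the gene-poor middle of chromosome 6 had as many LSH1 regions as gene-poor bins elsewhere, or more. The ratio of chromosome 6 to the others ran, over the 4 lists, from 0.354 to 0.486 in the richest class and from 1.18 to 1.79 in the poorest. The classes were set after bin values had been seen, and they match gene number only in part. In the richest class, 5 bins of chromosome 6 held 425 coding genes and 205 bins elsewhere held 19368, more per bin. In the poorest, 11 bins of chromosome 6 held 330 and 44 bins elsewhere held 1166, fewer per bin.

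NIN showed another pattern over the same classes. In bins under 40 coding genes chromosome 6 had 70.7 ± 17.7 NIN regions (SD over 11 bins), against 42.4 ± 22.9 elsewhere (44 bins). In bins with 80 or more it had 45.2 ± 7.53 (5 bins), against 27.6 ± 13.1 (205 bins). In the classes between, the means of chromosome 6 and the others were 65.2 and 65.1 (40 to 59 genes) and 47.1 and 49.1 (60 to 79 genes). Over the 3 lists the ratio was 1.05 to 1.98 in the poorest class and 1.06 to 1.81 in the richest, with the lowest ratio in NIN replicate 3 both times. Replicate 3, the longest list, had 294 peaks per bin on chromosome 6 and 279 elsewhere in the poorest class, and 170 and 161 in the richest, so its excess was small. In the richest class, 60 of the 205 bins on other chromosomes had at least 33 NIN regions, the lowest number in the chromosome 6 bins.

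When each full bin of chromosome 6 was given the mean peak number of its gene class elsewhere, the NIN lists held 1.15, 1.18 and 1.04 times that number (1.12 ± 0.0708, SD, n = 3). The LSH1 lists held 0.806, 0.817, 0.783 and 0.673 times (0.770 ± 0.0659, SD, n = 4). Both ratios stood nearer to 1 than the plain density ratios of 1.27 and 0.425. With finer classes of 10 genes the mean ratio was 1.09 for the NIN lists and 0.806 for the LSH1 lists. Whether gene content sets peak density was not tested.

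**Figure D4:**
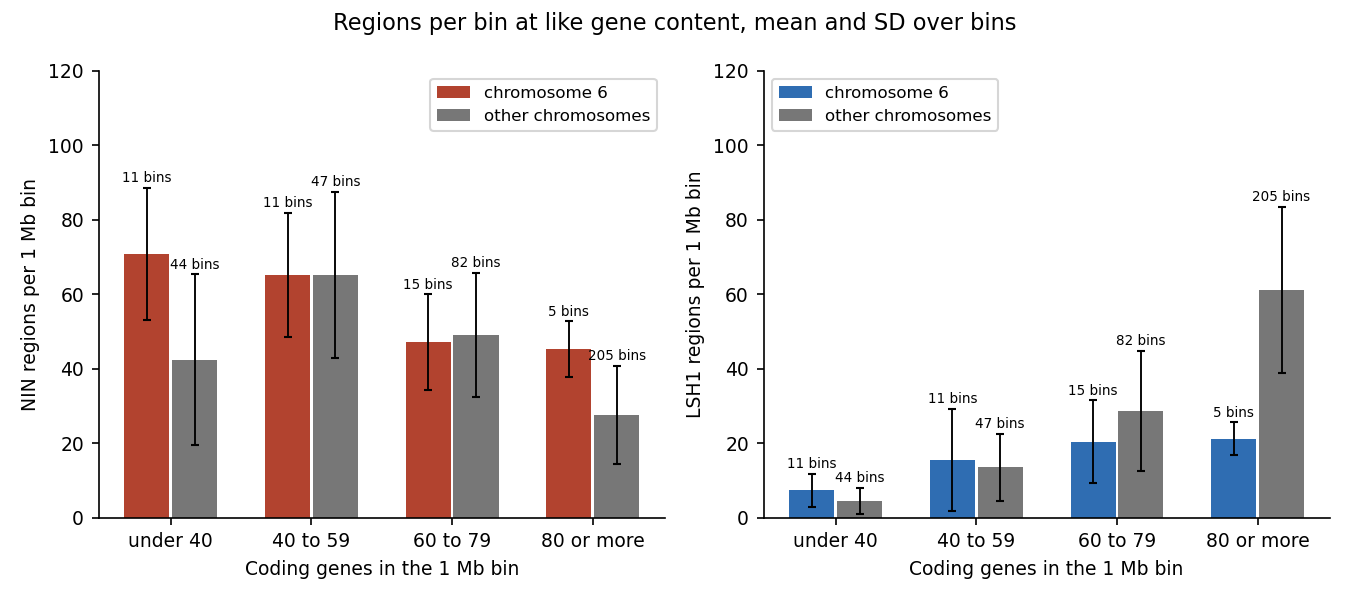
Mean number of NIN regions (left) and LSH1 regions (right) per full 1 Mb bin in 4 classes of coding genes per bin, for chromosome 6 (coloured) and the other chromosomes (grey); error bars are the SD over bins, and the number of bins stands above each bar. LSH1 on chromosome 6 falls short of the other chromosomes in the class with 80 or more genes (21.2 against 61.2), and NIN exceeds them in the classes under 40 (70.7 against 42.4) and from 80 (45.2 against 27.6).

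How peaks lay relative to genes was not used to choose the chromosome, and it was tested over lists. On chromosome 6 every NIN list had a lower share of its peaks at gene ends, and a higher share far from genes, than every LSH1 list, but neither difference passed the adjusted test. A gene-end window covered 2000 bp outside and 500 bp inside each end of a coding gene, because the gene table gives no strand. Of chromosome 6 peaks, 21.8, 20.8 and 19.9% had their midpoint in such a window in the NIN lists, against 37.7, 40.1, 31.5 and 36.9% in the LSH1 lists. The groups did not overlap. The means were 20.8% ± 0.986 (SD, n = 3) for NIN and 36.6% ± 3.63 (SD, n = 4) for LSH1, a difference of -15.7 percentage points. The two-sided exact permutation p was 0.0286, which is the minimum for 35 arrangements, and 0.0686 after Benjamini-Hochberg adjustment over the 12 tests run.

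Over 2000 bp from any coding gene lay 58.6, 64.9 and 67.5% of chromosome 6 peaks in the NIN lists, against 44.5, 39.6, 47.7 and 40.4% in the LSH1 lists. These groups did not overlap either. The difference of means was 20.6 points (two-sided exact permutation p = 0.0286, adjusted p = 0.0686). For width and place the lists of the proteins overlapped on chromosome 6. Median widths were 252, 278 and 474 bp in the NIN lists and 293, 331.5, 271 and 287 bp in the LSH1 lists (exact permutation, adjusted p = 0.743). The difference of means, 39 bp, became -30.6 bp without NIN replicate 3. Median places were 49.9, 49.5 and 47.7% in the NIN lists and 53.4, 50.9, 51.9 and 49.4% in the LSH1 lists (exact permutation, adjusted p = 0.171).

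Within each of the 7 lists, a smaller share of peaks lay at gene ends on chromosome 6 than on the other chromosomes, but the adjusted test was not passed. The gene-end share was 20.8% ± 0.986 on chromosome 6 and 26.7% ± 1.81 on the others in the NIN lists (SD, n = 3). In the LSH1 lists it was 36.6% ± 3.63 on chromosome 6 and 46% ± 2.25 on the others (SD, n = 4). Over all 7 lists the difference was -7.88 ± 2.55 points, lower in 7 of 7 (two-sided exact sign-flip permutation p = 0.0156, the minimum for 7 lists, adjusted p = 0.0686). The share over 2000 bp from genes was higher by 10.0 ± 1.90 points in 7 of 7 lists (exact p = 0.0156, adjusted p = 0.0686). Neither passed the threshold of 0.05 after adjustment, and 7 lists allow no smaller p.

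The bases of the chromosome differed in the same way. Gene-end windows take 24.9% of the bases of chromosome 6 and 32.5% of those of the others, and 57.4% and 45.7% of bases lie over 2000 bp from coding genes. Divided by the share of bases, the gene-end share of NIN peaks was 0.837 ± 0.0396 on chromosome 6 and 0.821 ± 0.0558 elsewhere (SD, n = 3). For LSH1 peaks it was 1.47 ± 0.146 on chromosome 6 and 1.41 ± 0.0693 elsewhere (SD, n = 4). On this scale, added after the values were seen, chromosome 6 was higher in 5 of 7 lists, by 0.0380 on average (two-sided exact sign-flip permutation p = 0.234, unadjusted). NIN peaks thus lay below, and LSH1 peaks above, an even spread over bases on chromosome 6 as on the rest.

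**Figure D5:**
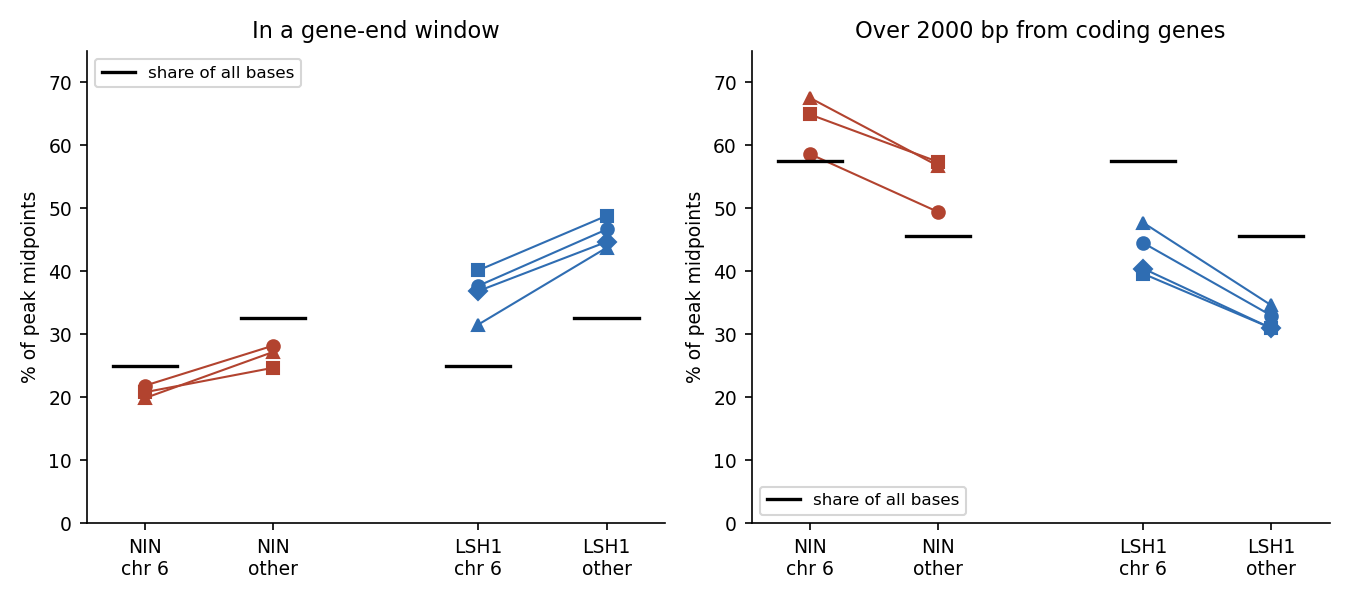
Share of peak midpoints in a gene-end window (left) and over 2000 bp from coding genes (right), in percent, for chromosome 6 and the other chromosomes; each line joins the values of 1 list (circle, square, triangle and diamond for replicates 1 to 4), and black bars give the share of bases. All 7 lists have a lower gene-end share and a higher far share on chromosome 6, as the bases have.

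The step of a list (its value on chromosome 6 minus that on the others) was compared between the proteins. For the gene-end share it was -5.85 points in the NIN lists and -9.40 points in the LSH1 lists (exact permutation, adjusted p = 0.114). For the share over 2000 bp from genes it was 9.18 and 10.7 points (exact permutation, adjusted p = 0.411). For median width it was 9.67 bp in the NIN lists and -22.1 bp in the LSH1 lists, where every list had narrower peaks on chromosome 6. The NIN widths were 252, 278 and 474 bp on chromosome 6 against 251, 271 and 453 bp elsewhere. The NIN steps thus ran from 1 bp in replicate 1 to 21 bp in replicate 3. The difference of 31.8 bp between the mean steps of the proteins had an exact permutation p of 0.0286 and an adjusted p of 0.0686. For median place the steps were -1.15 and 1.47 (exact permutation, adjusted p = 0.147). None of the 4 differences passed the adjustment.

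Most NIN regions of chromosome 6 lay in space between genes. Of the 2468, 1764 (71.5%) had their midpoint over 2000 bp from a coding gene, against 64.0% of NIN regions elsewhere, and 31.6% lay over 10 kb away, against 20.1%. The median distance was 5105 bp on chromosome 6 and 3520 bp elsewhere. LSH1 regions were nearer: 294 of 677 (43.4%) lay over 2000 bp away, against 32.2% elsewhere, and their median distance was 1346 bp, against 574.5 bp. In gene-end windows lay 432 NIN regions (17.5%, against 22.8% elsewhere) and 269 LSH1 regions (39.7%, against 48.9%). Wide regions of over 2000 bp numbered 302 for NIN (12.2%, against 8.61% elsewhere) and 7 for LSH1 (1.03%, against 1.61%). The widest NIN region measured 8546 bp and the widest LSH1 region 3496 bp.

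Counted by genes, more coding genes of chromosome 6 had a NIN region than an LSH1 region, and fewer did on the other chromosomes, but the order on chromosome 6 depended on the NIN lists. A NIN region had its midpoint in the gene-end window of 418 of 2454 coding genes (17.0%), against 11.2% on the other chromosomes and 11.7% of all 31728. An LSH1 region did so for 263 (10.7%), against 24.6% on the others and 23.5% of all. Without NIN replicate 3 a NIN region stood at 86 genes of chromosome 6 (3.50%, against 2.30% elsewhere) and without replicate 2 at 135 (5.50%, against 4.10%), in both cases fewer than the 263 of LSH1. Without replicate 1 it stood at 322. Both shares depend on the number of regions, which the choice of the chromosome fixed, so nothing is read from their distance to the background. Both proteins were found at 27 genes, 6.46% of the NIN genes and 10.3% of the LSH1 genes, and 1800 genes had neither. Single peaks of the NIN lists were found at 14.1, 28.6 and 56.6% of chromosome 6 genes, against 12.2, 18.4 and 50.7% elsewhere. Those of the LSH1 lists were found at 17.2, 16.6, 11 and 10.5%, against 32.8, 30.6, 24.8 and 26.9%. Each NIN list had a higher share of genes on chromosome 6 than elsewhere and each LSH1 list a lower one. These shares move with the number of peaks, on which the chromosome was chosen, so nothing is read from this direction either. Between the proteins the lists had no fixed order: NIN replicate 1 reached fewer chromosome 6 genes than LSH1 replicates 1 and 2, and NIN replicate 3 reached more genes elsewhere than any LSH1 list. In bins with 80 or more genes a NIN region stood at 14.1% of the 425 genes of chromosome 6, against 7.98% elsewhere, and an LSH1 region at 10.4%, against 29.5%.

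Genes that make no protein are given as a description. These shares also depend on the number of regions, which the choice of the chromosome fixed. They were not recounted without NIN replicate 3, so nothing is read from their distance to the other chromosomes. Long noncoding RNA genes had a NIN region in the window in 83 of 287 cases on chromosome 6 (28.9%, against 18.7% elsewhere) and an LSH1 region in 26 (9.06%, against 14.6%). Small nucleolar RNA genes, whose products guide the modification of ribosomal RNA, had a NIN region in 31 of 135 cases (23.0%, against 12.7%) and an LSH1 region in 6 (4.44%, against 5.98%). Transfer RNA genes had a NIN region in 4 of 36 cases (11.1%, against 5.63%) and an LSH1 region in 3 (8.33%, against 24.6%). Pseudogenes had a NIN region in 28 of 181 cases (15.5%, against 18.2%) and an LSH1 region in 17 (9.39%, against 15.8%). None of the 505 ribosomal RNA genes had a region of either protein in its window, against 1.44% (NIN) and 0.554% (LSH1) of those elsewhere, which is also close to 0.

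The best-placed NIN regions were those in all 3 lists with the lowest mean place. Of the 10 best, 9 were over 2000 bp from the nearest coding gene and 8 over 5000 bp, measured from the edge of the region. Of all 318 NIN regions in 3 lists, 65.4% and 46.9% were as far. In bins 24 to 31, a range chosen after its values were seen, lay 8 of the 10, and 84 of the 318 (26.4%). The first, chr6:29919964-29921200, had places of 0.792, 0.142 and 0.0380% in NIN replicates 1 to 3. It lay 80567 bp from LOC120576085, the nearest coding gene. The second, chr6:29988717-29989226, had a mean place of 0.369% and lay 12541 bp from the same gene. The fifth, chr6:29999405-30006054, 6650 bp wide with a mean place of 0.515%, overlapped that gene and alone of the 10 overlapped an LSH1 region. The seventh and eighth, chr6:30020040-30021892 and chr6:30011309-30011733, with 1.19 and 1.22%, lay 14128 and 5397 bp from it. The gene table gives no product for LOC120576085.

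These 5 regions stood in a group. Between 29900000 and 30040000, a span of 140 kb chosen after its values were seen, there were 25 NIN regions, 9 of them in all 3 lists, and 1 coding gene. LSH1 had 3 regions in the span. One of them, chr6:30031158-30032043, was in all 4 LSH1 lists at a mean place of 1.42%, and the other two were in 2 and 3 lists with 21.3 and 7.09%. All 3 lay past 30000000, in bin 31, so the left part of the group held no LSH1 region. It was not free of LSH1 peaks: the NIN region chr6:29988717-29989226 was met by a peak of at least 1 LSH1 list.

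The remaining NIN regions of the 10 lay apart. The third, chr6:24469565-24470393 (mean place 0.439%), was 17242 bp from LOC25479688, inside the longest stretch without LSH1. The fourth, chr6:26472325-26472623 (0.447%), was 8937 bp from LOC120575920, and the tenth, chr6:26446242-26450508 (1.82%), 7301 bp from LOC120576071. On the arms lay the sixth, chr6:4699860-4701634 (0.974%), 16429 bp from LOC11416862, and the ninth, chr6:35481354-35483243 (1.34%), 2295 bp from LOC25496696. Of the 10, 5 were also met by a peak of at least 1 LSH1 list. Those ranked 1, 3, 6, 8 and 9 were met by none, and they are the 5 best among NIN regions in no LSH1 list. Earlier in the lists than all of these stood chr6:20318729-20319289, with a mean place of 0.0830%, and chr6:4716088-4716467, with 0.288%, but both were in 2 lists and missed the rule of all 3. None of the 10 lay within 5000 bp of ribosomal RNA genes.

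The best-placed LSH1 regions were spread over the chromosome and nearer to genes than the best-placed NIN regions. Of the 10 in all 4 lists with the lowest mean place, 4 overlapped a coding gene, 5 were over 2000 bp from one, and their bins ran from 2 to 42. Of all 677 LSH1 regions, taken by midpoint, 28.2% lay inside a coding gene and 43.4% over 2000 bp away. In a gene-end window lay 1 of the 10 and 39.7% of the 677. Nothing is read from 10 regions against these shares. The first, chr6:32962907-32964211, had places of 0.0836, 0.10, 0.165 and 0.135% in LSH1 replicates 1 to 4, so it stood among the first peaks of every list. It lay 5814 bp from LOC11422224. The second, chr6:6674315-6677804 (3490 bp wide, mean place 0.233%), lay 10869 bp from LOC25495583. The third, chr6:1712838-1716333 (0.476%), overlapped LOC25495196 and was the widest LSH1 region of the chromosome with 3496 bp. The eighth, chr6:1709191-1710456 (1.01%), lay 2041 bp from the same gene, on which the pair thus bordered.

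The remaining LSH1 regions of the 10 lay on genes or apart from them. The fifth, chr6:28802530-28805247 (0.595%), overlapped LOC25479490, and the sixth, chr6:28832990-28833881 (0.597%), overlapped LOC25479489. Both lay in bin 29, which is NIN-dense. The ninth, chr6:33706912-33708052 (1.01%), overlapped LOC11422802 and was the one with its midpoint in a gene-end window. The fourth, chr6:5582077-5583426 (0.591%), lay 5290 bp from LOC25495432. The seventh, chr6:41062009-41063643 (0.801%), lay 13120 bp from LOC25496944. The tenth, chr6:9598547-9599675 (1.23%), lay 1622 bp from LOC11408840. None of the 10 overlapped a NIN region, and 2 of them, ranked 2 and 7, were met by a peak of at least 1 NIN list. The other 8 were in no NIN list, and those ranked 1, 3, 4, 5 and 6 are the 5 best of that kind. Of single chromosome 6 peaks, 20.2 to 27.2% in the LSH1 lists were met by a peak of at least 1 NIN list.

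Regions of both proteins, each merged from 2 or more lists, seldom coincided. On chromosome 6, 29 NIN regions (1.18%) overlapped an LSH1 region, against 3.00% elsewhere, and 28 LSH1 regions (4.14%) overlapped a NIN region, against 2.82%. The shares move with the numbers of regions, which the choice of the chromosome fixed. Single peaks met more often. Of chromosome 6 peaks in LSH1 replicates 1 to 4, 23.0, 20.2, 27.2 and 22.9% met a peak of at least 1 NIN list. In NIN replicates 1 to 3, 9.21, 5.18 and 5.31% met a peak of at least 1 LSH1 list. The peaks of NIN replicate 3 alone covered 15.8% of the chromosome. Whether the overlap departs from an even spread was not tested. The number was 12 NIN regions without NIN replicate 2 and 6 without NIN replicate 3. Of the 29 overlaps, 13 lay in bins 1 to 15, 5 in bins 16 to 31 and 11 in bins 32 to 43, where LSH1 had 294, 104 and 279 regions and NIN 754, 1138 and 576. That makes 4.42, 4.81 and 3.94 overlaps per 100 LSH1 regions, and 1.72, 0.439 and 1.91% of the NIN regions. From a NIN region to the nearest LSH1 region the median distance was 39447 bp, and 42.4% of NIN regions lay over 50 kb from one. From an LSH1 region to the nearest NIN region it was 8916 bp, and 5.47% lay over 50 kb away.

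A single overlap joined regions found in all 7 lists. The NIN region chr6:657038-657808 (mean place 53.3%) overlapped the LSH1 region chr6:656941-657846 (mean place 7.57%), and LOC112422655 was the nearest coding gene. Best placed on the NIN side was the overlap at LOC120576085 described above, whose LSH1 region came from 2 lists (mean place 21.3%). Best placed on the LSH1 side was chr6:33715619-33716912, present in 4 lists (mean place 1.25%). It was met by the NIN region chr6:33715506-33715927, which was in 2 lists with 15.5%.

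No coding gene of chromosome 6 has a symbol other than a locus identifier in the gene table, and VPY and ERN2 were matched by synonym. VPY (vapyrin, a protein with ankyrin repeats needed for infection by rhizobia and by mycorrhizal fungi) had 3 NIN regions and 2 LSH1 regions within 20 kb, each in 2 lists. Its nearest NIN region, chr6:10273255-10274960, was 765 bp away with a mean place of 53.8%, in the later part of its lists, and its nearest LSH1 region, chr6:10261294-10261733, was 8519 bp away with a mean place of 24%. ERN2, an ERF transcription factor of nodulation, had no NIN region within 20 kb and 1 LSH1 region 16998 bp away. VPY had a region (of NIN) in its gene-end window and ERN2 had none.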

How the data were processed

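Per the labels, the authors called narrow peaks for each immunoprecipitation against its control and not on pooled samples, with a q cutoff of 0.05. The submitters' processing notes name MACS2, Bowtie2, ChIPseeker and Picard, with no version; the build is not given in the sources used here. The deposited lists give start, end and running number of each peak, and no score, fold or signal. Start and end are positions in bp as the authors' lists hold them, printed counted from 1. Chromosome 6, its regions and all gene lists were chosen with earlier results of these data known.

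Peaks were merged per protein (overlap of at least 1 bp, 2 or more lists) and assigned by midpoint to 1 Mb bins and to genes, with Python 3.11.15, pandas 2.3.3 and SciPy 1.17.1. Genes were those of RefSeq for assembly MtrunA17r5.0-ANR (31728 coding genes). Sequence names in the lists start with MtrunA17, but gene coordinates are not printed because the lists state no build. The table gives no strand, product or exon, and no sequence was used, so families by product and promoter motifs were not analysed here.

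NIN lists were compared with LSH1 lists by two-sided exact permutation tests over 35 arrangements of 7 lists. Chromosome 6 was compared with the others within lists by exact sign-flip permutation tests, with Benjamini-Hochberg adjustment over 12 tests. The procedure was tested on simulated data. Named regions were the 10 best-placed per protein in all of its lists, with their nearest coding gene, the 5 best in no list of the other protein, and VPY. ERN2, matched by synonym, was added after the table was seen. Alternatives were all lists, the first 5000 peaks, an overlap of 50%, no regions over 2000 bp, other bins and gene windows, a replicate block and each list left out.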

Additional observations from a re-analysis of the deposited data

Results flagged for a closer look

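Of 25 measures examined for an outlying list among the 4 LSH1 lists, 1 had one. Outside chromosome 6, 61.2% of the peaks of LSH1 replicate 2 overlapped a peak of another LSH1 list, far from the 55.6 to 56.2% of the other LSH1 lists; chance marks about 1 in 20 groups. On chromosome 6 the same share was 52.0% in LSH1 replicate 2 and 46.6 to 55.5% in the others.

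The median peak width on chromosome 6 minus that on the other chromosomes had opposite signs in the proteins. It was 9.67 bp in the NIN lists, with 3 of 3 above 0 but only 1 bp in replicate 1. In the LSH1 lists it was -22.1 bp, with 4 of 4 below 0. The difference was 31.8 bp (exact permutation p = 0.0286, adjusted p = 0.0686), and it was 26.1 to 36.1 bp without 1 list at a time. It did not pass the adjustment.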

How the results depend on the processing

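None of the 12 tests passed the adjusted threshold with the settings of the report or with any alternative run, and with 1 list left out the tests of NIN against LSH1 lists cannot reach it. Of 78 values under alternatives other than leaving out a list, 5 turned direction and 11 values or counts moved past the spread between lists or by over 1.5 times. The tested differences were compared by direction and threshold alone, and their size could change: with lists limited to 5000 peaks, the NIN against LSH1 step went to 70.3 bp in width (31.8 with all peaks), to -4.72 points in the far share (-1.52) and to -0.394 in place (-2.61). With peaks of regions of 2 or more lists alone, the NIN minus LSH1 difference in median place turned to 7.76 (exact permutation, adjusted p = 0.267) and the step of NIN against LSH1 in median place to 1.66 (exact permutation, adjusted p = 0.377). Over all 7 lists the width step then turned to 5.00 bp and the place step to -1.96 (exact permutation, adjusted p = 0.922 and 0.0804). With windows of the whole gene plus 3000 bp on both sides the gene-end step of NIN against LSH1 turned to -0.196 (exact permutation, adjusted p = 0.857). The cause of these turns was not tested.

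With regions in all lists, fewer by construction, there were 318 NIN and 186 LSH1 regions, 7 bins without LSH1 and 1 overlap. With the first 5000 peaks there were 186 NIN regions (15.7% of all) and 185 LSH1 regions, 4 bins without LSH1 and 2 overlaps. In bins of 2 Mb, 5 were NIN-dense and 5 LSH1-sparse. Without 1 list at a time the ranges were 390 to 2468 NIN regions, 461 to 677 LSH1 regions, 6 to 21 overlaps, 6 to 11 NIN-dense bins, 7 to 10 LSH1-sparse bins, 13.3 to 15.1% of NIN and 3.81 to 4.28% of LSH1 regions on chromosome 6, and 0 bins without LSH1. The NIN minus LSH1 difference in width ran from -30.6 to 80.4 bp, and the place step over the lists from -0.183 to 0.847.

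With a replicate block of numbers 1 to 3 the gene-end difference was -15.6 points (exact permutation p = 0.25, the minimum for 3 pairs, adjusted p = 0.286). Bin deviations of equal numbers correlated with r of 0.314, 0.112 and -0.0418, and those of unequal numbers with r of -0.369 to 0.293. These overlapping values do not settle whether equal numbers are pairs, and the numbers were not taken as pairs. The ratio of NIN to LSH1 regions, the bins with more NIN regions and the genes with a NIN region were recounted without 1 list at a time after the data had been seen. Unknown depth limits any reading of list length.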
